A study of Mus musculus with 8 samples.

Results

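The genes described here are 48 histone modifiers and chromatin remodelers. They were taken by symbol from a list of Polycomb proteins, histone methyltransferases, autosomal histone demethylases, histone deacetylases, histone acetyltransferases and chromatin remodelers. All 48 symbols were found among the 48440 entries of the count table, and all 48 were among the 13771 genes with enough counts to be tested. The cells were purified cardiomyocytes of the C57BL6/J mouse strain, taken at 2 days after birth, with no treatment or altered allele named in the labels. Each of 4 litters gave 1 male and 1 female heart, so there were 4 male and 4 female libraries and 2 libraries per litter. The number of a library is its litter, and the male and female of a litter are litter mates. Whatever set the litters apart (parents, day, dissection or purification) cannot be told apart from litter itself.

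DNA in the nucleus is wound around histones, and enzymes that add or remove methyl and acetyl groups on histone tails mark genes as silent or active. Polycomb repressive complex 2, whose catalytic subunit is Ezh2 or Ezh1, methylates histone H3 at lysine K27 at silenced genes, while Polycomb repressive complex 1 ubiquitinates histone H2A. Acetyltransferases such as Ep300 open chromatin, deacetylases close it, and remodelers of the SWI/SNF (BAF) and CHD families use ATP to move nucleosomes. In the heart these proteins are known to take part in chamber formation and in the passage from dividing fetal to non-dividing adult cardiomyocytes, which takes place around birth in mice.

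The promoters of 3 members are shown because the results turn on these genes. Ezh1 and Ezh2 are the alternative catalytic subunits whose balance differed between litters, and Smyd1 is the striated-muscle methyltransferase with the highest level per kb in the list. The windows run from 250 bases before to 50 bases after a transcription start in RefSeq on GRCm38.p6. They are written 5′ to 3′ on the strand of the gene, which is the minus strand for all 3, and lie at chr11:101226414-101226713, chr6:47594981-47595280 and chr6:71262232-71262531. Capitals mark the CCAAT box, the TATA box (searched as TATAAA) and 4 forms of the E2F motif (TTTCCCGC, TTTGGCGC, TTTCGCGC and TTTGCCGC). Each was searched on both strands, so that the reverse complement of a motif is in capitals too, and no 2 of the marked matches overlap.
Ezh1: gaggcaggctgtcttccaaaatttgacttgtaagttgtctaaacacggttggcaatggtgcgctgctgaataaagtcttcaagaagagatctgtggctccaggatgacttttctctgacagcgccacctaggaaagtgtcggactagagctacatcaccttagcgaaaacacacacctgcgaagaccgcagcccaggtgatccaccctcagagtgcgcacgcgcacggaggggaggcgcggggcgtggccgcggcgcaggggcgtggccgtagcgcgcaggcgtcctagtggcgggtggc
Ezh2: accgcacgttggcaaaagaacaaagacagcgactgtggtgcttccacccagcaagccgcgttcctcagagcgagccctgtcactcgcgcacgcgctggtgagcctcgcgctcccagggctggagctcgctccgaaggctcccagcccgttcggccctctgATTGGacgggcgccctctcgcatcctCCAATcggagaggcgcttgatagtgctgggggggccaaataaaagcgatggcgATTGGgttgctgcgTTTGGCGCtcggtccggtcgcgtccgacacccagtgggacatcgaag
Smyd1: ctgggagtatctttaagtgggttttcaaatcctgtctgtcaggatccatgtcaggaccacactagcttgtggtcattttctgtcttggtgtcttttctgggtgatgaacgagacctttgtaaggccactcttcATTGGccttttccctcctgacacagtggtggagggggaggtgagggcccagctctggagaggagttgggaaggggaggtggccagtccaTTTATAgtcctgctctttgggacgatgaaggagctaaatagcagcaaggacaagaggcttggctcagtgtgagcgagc

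The Ezh2 window held 3 CCAAT motifs and 1 E2F motif, the Smyd1 window held 1 CCAAT and 1 TATAAA motif (both on the opposite strand), and the Ezh1 window held none of the letters searched. Among 12623 RefSeq promoter windows of the same length, 3.87% held an E2F form, 37.5% held CCAAT, 7.15% held TATAAA and 4.91% held at least 3 CCAAT motifs. RefSeq windows were found for 41 of the 48 members, with 56 windows in all because some genes have several starts. Of these 56 windows, 4 held an E2F form (1 each of Arid1a, Ezh2, Kat2a and Suz12), 20 held CCAAT, 3 held TATAAA, and 1, that of Ezh2, held at least 3 CCAAT motifs. The members with no matched window were Cbx2, Chd7, Hdac1, Hdac3, Hdac10, Kdm4b and Kdm6b. A match of letters is a description of the window and not a binding site.

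Depth was between 14226342 counts, in the female of litter 3, and 24910243 counts, in the male of litter 1. Levels are given as CPM, in which each library was brought to the same total after TMM normalization. The cardiomyocyte label was checked against 10 defining genes, whose summed level was 72274 to 96549 CPM over the 8 libraries. The range was 32.4 to 243 CPM for 8 fibroblast genes, 15.3 to 142 CPM for 8 endothelial genes, and 837 to 1467 CPM for 8 mural genes, of which Acta2 was the most abundant. The macrophage genes C1qa, C1qb, Adgre1 and Ptprc and the Schwann and neural genes Sox10, S100b and Tubb3 were each at 0 in at least 1 library, while Ncam1 of the neural list was at 111 to 195 CPM. The male of litter 4 stood apart, with 18.5% of its counts on mitochondrial genes against 13.4% to 15.2% elsewhere. It also had 0.396% of its counts on the 48 members against 0.446% to 0.466% elsewhere. In bulk samples, fewer cells of a type and less RNA per cell cannot be told apart.

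Levels between genes were compared as CPM per kb of summed exon length (GENCODE M21), a measure that is too low for genes whose annotated exons exceed the transcript in use. Smyd1, a methyltransferase made in heart and skeletal muscle that is needed for heart development and sarcomere assembly, had the highest level, 179 ± 22.0 CPM per kb (SD, n = 8). Next came Chd4, the ATPase of the NuRD corepressor, at 48.7 ± 3.67 CPM per kb, and Dot1l, which methylates histone H3 at lysine K79, at 41.2 ± 5.92 CPM per kb. Chd4 and Dot1l overlapped, with libraries that ran from 43.8 to 54.9 for Chd4 and from 32.0 to 47.1 for Dot1l. The lowest library for Smyd1 was at 144. The class I deacetylase Hdac2 followed at 29.8 ± 2.42 CPM per kb and the acetyltransferase Kat2b (PCAF) at 27.4 ± 2.05 CPM per kb. At the other end were Suv39h2, which methylates lysine K9 of histone H3 in heterochromatin, at 0.563 ± 0.193 CPM per kb, and the Polycomb reader Cbx7 at 0.804 ± 0.223 CPM per kb. Suv39h2 had only 18 to 97 counts in a library, the fewest of the 48.

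**Figure D1:**
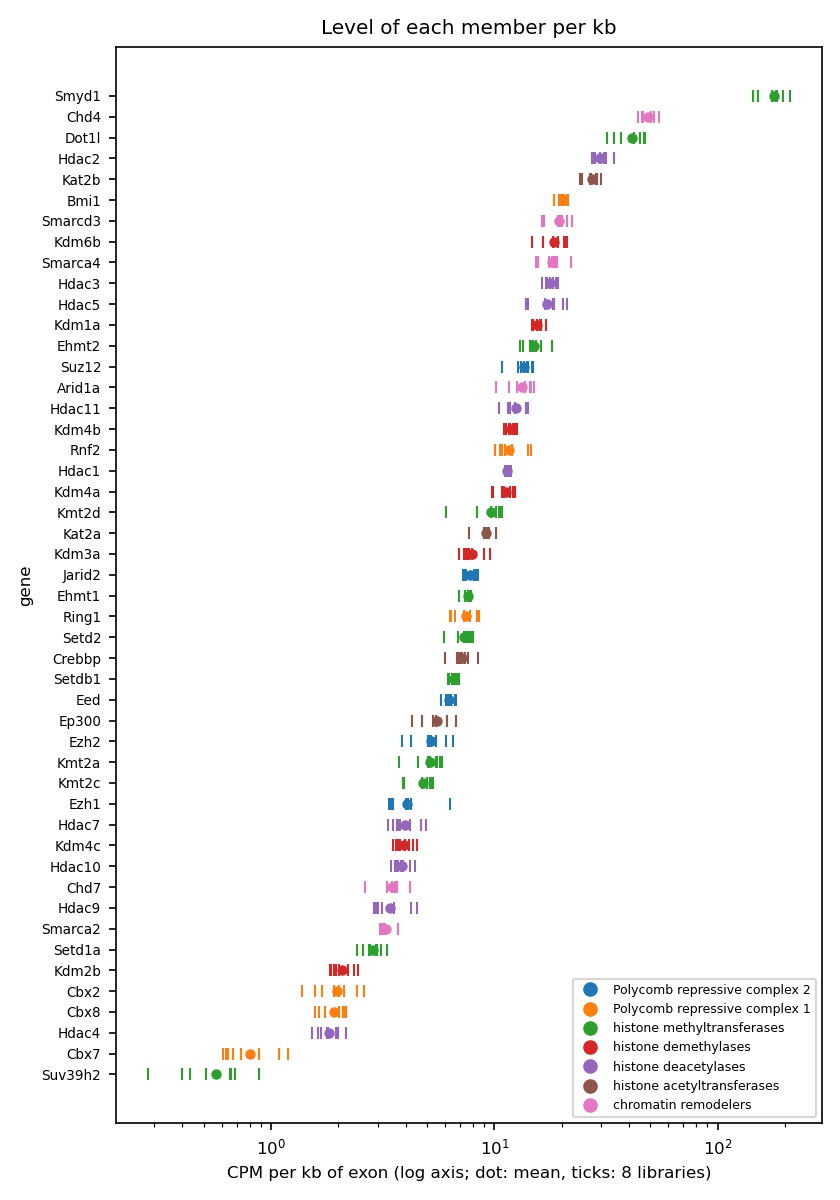
Level of each of the 48 members in CPM per kb of exon (log axis), with a tick for each of the 8 libraries, a dot for the mean, and colour for the role. Smyd1 stands alone at the top with a mean of 179, and Suv39h2 is lowest at 0.563.

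Within each role the levels per kb were spread over a wide range. In Polycomb repressive complex 2, the scaffold Suz12 (13.5 ± 1.29 CPM per kb) lay above the accessory subunit Jarid2 (7.80 ± 0.498), the H3K27me3 reader Eed (6.29 ± 0.317), Ezh2 (5.19 ± 0.875) and Ezh1 (4.06 ± 0.979). In Polycomb repressive complex 1, Bmi1 had 20.3 ± 0.945 CPM per kb and the chromobox genes Cbx2 and Cbx8 had 1.96 ± 0.416 and 1.92 ± 0.232 CPM per kb. Among demethylases the highest level was that of Kdm6b, which removes H3K27 methylation, at 18.5 ± 2.32 CPM per kb, and the lowest that of Kdm2b at 2.07 ± 0.234. Class IIa deacetylases, which bind Mef2 factors, had 17.1 ± 2.94 CPM per kb for Hdac5, 3.99 ± 0.570 for Hdac7, 3.40 ± 0.634 for Hdac9 and 1.81 ± 0.213 for Hdac4. Of the BAF members, Smarcd3 (Baf60c), a subunit enriched in heart and muscle, had 19.4 ± 2.02 CPM per kb, against 18.1 ± 2.12 for the ATPase Smarca4 (Brg1) and 3.28 ± 0.255 for the ATPase Smarca2 (Brm).

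Some members share sequence with neighbours or copies, and whether counting used the strand is not given in the sources used here. For Setd1a, 53.7% of 100-base windows of its longest transcript also lie in the overlapping gene model Gm49388. The share was 46.8% for Hdac1, whose copies include the gene Gm10093 with 0 to 12 counts in a library. It was 56.8% for Smarcd3, which overlaps Chpf2 (143 to 251 counts) on the opposite strand. Smaller shares were found for Kdm2b (21.1%, mostly with Rnf34 on the opposite strand) and Hdac11 (19.4%, with Gm44002, at 0 to 2 counts). Hdac4 has 22.4% of its exon bases overlapped by Gm26720 on the opposite strand, at 0 counts in all 8 libraries, and Suv39h2 has 9.98% overlapped by Dclre1c on the opposite strand, at 96 to 158 counts. The levels of Setd1a, Hdac1, Smarcd3, Kdm2b, Hdac11, Hdac4 and Suv39h2 are therefore uncertain to that extent.

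The first comparison was between the sexes. No member passed the test of sex: 0 of 48 met the threshold of 0.05 on the Benjamini-Hochberg adjusted p in edgeR's quasi-likelihood test, against 6 of 13771 genes (0.0436%). The log2 difference of the members, male minus female, ran from -0.36 for Cbx2 to 0.28 for Suv39h2, with a median of -0.05, while the median of all genes was near 0. At an unadjusted p under 0.05 there were 0 members in edgeR and 0 in DESeq2, against 306 and 290 of all genes. With litter as a block, which pairs the male and female of a litter, 29 genes passed (0.211%) and 0 members did. In that fit 8 of 48 members and 1592 of 13771 genes had an unadjusted p under 0.05.

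The 8 members with such a p in the paired fit are given by value, since none passed the adjustment. The largest difference was that of Cbx2, a chromobox subunit of Polycomb repressive complex 1, at -0.36 ± 0.14 (SE; unadjusted p = 0.0233, adjusted p = 0.372). The smallest p was that of Hdac5, a class IIa deacetylase, at -0.22 ± 0.06 (SE; unadjusted p = 0.00586, adjusted p = 0.295). Values for the remaining ones were -0.18 for Setd1a, -0.17 for Dot1l, -0.15 for Kdm6b, -0.14 for Hdac4, -0.14 for Crebbp and 0.13 for Kat2b, on the log2 scale. Kat2b was higher in the male in 4 of 4 pairs, and Cbx2, Setd1a, Kdm6b, Hdac4 and Crebbp were higher in the male in 0 of 4 pairs. In the male of litter 4, Kdm6b had 103 CPM and Dot1l 278 CPM, the lowest values of either gene. The part of that library in these differences was not tested. The demethylases that did pass the test of sex lie on the sex chromosomes and are not among the 48. Kdm5d and Uty on the Y passed without the block. With the block Kdm6a (-0.80 ± 0.06, SE) and Kdm5c (-0.58 ± 0.05, SE) on the X passed as well, both lower in males.

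The second comparison was between litters. Of the 48 members, 22 (45.8%) differed between the 4 litters in a test of the 3 litter coefficients together, against 4427 of 13771 genes (32.1%). With a correction for exon length, described below, the test called 17 members and 3907 genes. Without litter 3 it called 8 members and 1898 genes. The 22 members were 2 of 5 genes of Polycomb repressive complex 2, 3 of 6 of complex 1, 6 of 11 methyltransferases, 3 of 7 demethylases, 4 of 9 deacetylases, 1 of 4 acetyltransferases and 3 of 6 remodelers. The steadiest members over the 8 libraries were Hdac1, with a coefficient of variation of 2.41%, Setdb1 with 4.26%, Ehmt1 with 4.29%, Kdm4b with 4.58% and Bmi1 with 4.66%. The most variable were Suv39h2 with 34.3%, Cbx7 with 27.8%, Ezh1 with 24.1% and Cbx2 with 21.2%.

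**Figure D2:**
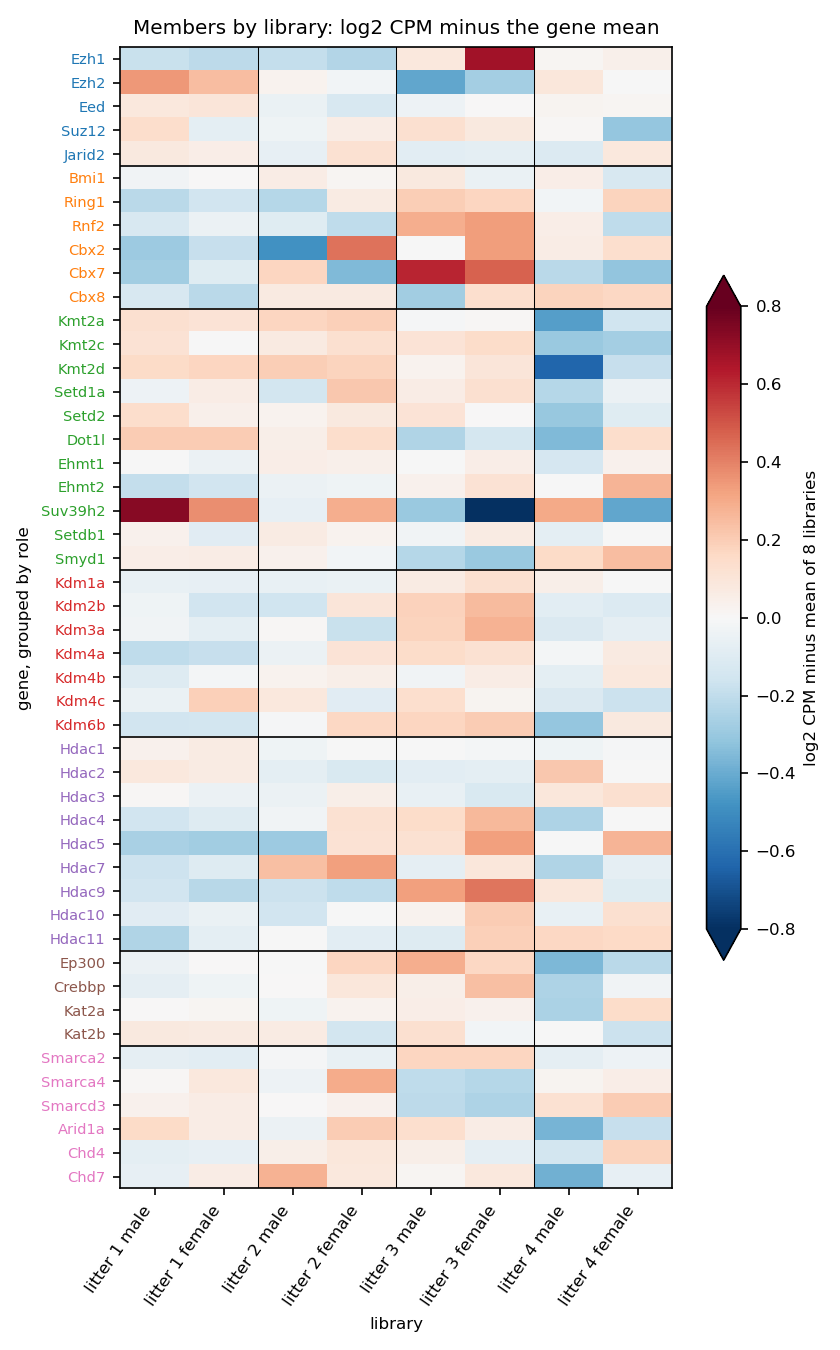
Each member (row, grouped and coloured by role) in each of the 8 libraries (column), as log2 CPM minus the gene's mean over the libraries; values past the ends of the colour scale take the end colour. The 2 libraries of litter 3 share a column pattern in which Ezh1, Rnf2, Cbx7 and Hdac9 are red and Ezh2, Smyd1 and Smarcd3 are blue, and the male of litter 4 is blue at Kmt2a, Kmt2d and Arid1a.

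Each litter was then set against the mean of the other 3, in 4 comparisons that share libraries and are not independent. Every difference given below for a litter is the log2 difference from that mean, negative where the litter was lower. In litter 3, 13 members were higher (27.1% of 48, against 13.6% of all genes) and 6 were lower (12.5%, against 14.8% of all genes). In litter 4, 2 members were higher (against 4.71% of all genes) and 6 were lower (12.5%, against 5.8%). In litter 1, 2 were higher (against 7.86%) and 4 lower (against 5.41%), and in litter 2, 1 was higher (against 3.3%) and 0 lower (against 0.879%). With either library of litter 3 or of litter 1 left out, the counts of that litter fell, for members and all genes. Those of members higher and lower in litter 3 then also lay closer to each other. The median member difference in litter 3 was 0.08, and 0.06 without its male and 0.11 without its female. At an unadjusted p under 0.05 litter 2 had 8 of 48 members in either direction, against 2466 of 13771 genes. For litter 2 DESeq2 called 1 member higher and 0 lower, against 304 and 128 of all genes. Without a test, both libraries of litter 3 lay above all other 6 for 11 members (22.9%, against 15.1% of all genes). They lay below for 5 (10.4%, against 16.4%). Both of litter 4 lay above for 4 (8.33%, against 8.23%) and below for 7 (14.6%, against 8.8%). The balance of directions depended on the scaling. With library totals alone, litter 3 had 58.8% of its calls over all genes on the higher side instead of 47.9%, with 16 members higher and 4 lower. Litter 4 then had 14.9% instead of 44.8%, with 0 members higher and 10 lower.

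**Figure D3:**
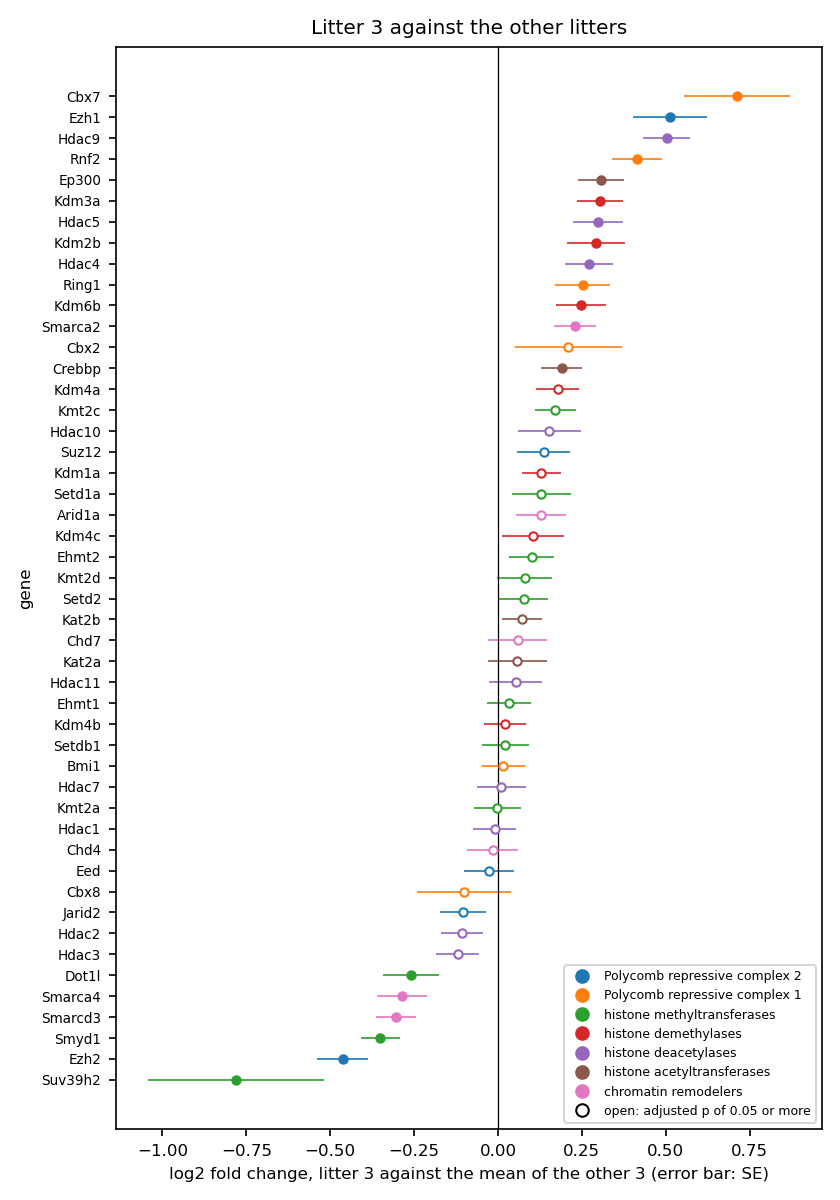
The log2 difference of each member between litter 3 and the mean of the other 3 litters (dot) with its SE (bar), coloured by role, filled where the adjusted p is under 0.05. Of the filled dots, 13 lie above 0, led by Cbx7, Ezh1 and Hdac9, and 6 lie below, led by Suv39h2 and Ezh2.

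Litter 3 differed from the rest in other gene lists, and the part of these in the members' differences was not tested. The summed level of 12 G2/M genes was 73.4 and 106 CPM in litter 3 against 202 to 461 CPM in the other 6 libraries, with 12 of 12 genes called lower. That of 10 S phase genes was 156 and 170.4 CPM in litter 3 against 236 to 374 CPM in the other 6 libraries, with 9 of 10 called lower. Both lists of dividing-cell genes were thus lowest in the 2 libraries of litter 3. The summed level of the 10 cardiomyocyte genes was 73458 and 72274 CPM in litter 3 against 84342 to 96549 CPM in the other 6 libraries, with 5 called lower. That of 8 atrial genes was 1339 and 1629 CPM in litter 3 against 228 to 865 CPM in the other 6 libraries, most of it from Nppa, with 1 of 8 called higher and 1 lower. The summed cardiomyocyte level was thus lowest in the 2 libraries of litter 3 and the summed atrial level highest, though the atrial genes called went both ways. Fibroblast genes stood at 51.8 and 32.4 CPM in litter 3 against 108 to 243 CPM in the other 6 libraries, with 6 of 8 called lower. Mural genes were at 858 and 837 CPM in litter 3 against 1284 to 1467 CPM in the other 6 libraries, with 5 of 8 called lower. Endothelial genes were at 16.1 and 17.6 CPM in litter 3 against 15.3 to 142 CPM in the other 6 libraries, with 6 of 8 called lower. The fibroblast and mural sums did not overlap the other litters, while the endothelial sum of 1 other library was as low. Erythroid genes were at 529 and 184 CPM in litter 3 against 97.7 to 243 CPM in the other 6 libraries, with 2 of 5 tested genes called higher. The Schwann and neural list, most of it Ncam1, was at 181 and 209 CPM in litter 3 against 125 to 144 CPM in the other 6 libraries, with 1 of 2 tested genes called higher. The macrophage list ran from 5.64 to 10.05 CPM over all 8 libraries, with none of the 3 tested genes called in litter 3. The epicardial list was at 2.26 and 2.48 CPM in litter 3 against 2.52 to 5.78 CPM in the other 6 libraries, with 2 of 5 tested genes called lower.

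The enzymes of Polycomb repressive complex 2 moved in opposite directions in litter 3. Ezh2, the catalytic subunit that predominates in dividing cells, had 43.5 and 40.6 CPM in litter 1, 34.9 and 33.7 CPM in litter 2, 25.7 and 28.3 CPM in litter 3, and 36.4 and 34.2 CPM in litter 4, with the male given first here and below. Both libraries of litter 3 were below the other 6, and both of litter 1 were above. Ezh2 was lower in litter 3, at -0.46 ± 0.08 (SE; adjusted p = 0.00102) and higher in litter 1, at 0.40 ± 0.07 (SE; adjusted p = 0.00347). The dividing-cell lists were also highest in both libraries of litter 1, G2/M at 461 and 389 CPM against 73.4 to 272 CPM elsewhere and S phase at 374 and 346 CPM against 156 to 312 CPM, and their part was not tested. The call of Ezh2 in litter 1 was lost without its male library, at 0.35 (adjusted p = 0.126), while the call in litter 3 held in all 13 alternatives tried. Ezh1, the paralog with weaker activity that is found in resting and differentiated cells, had 26.1 and 25.6 CPM in litter 1, 25.9 and 25.1 CPM in litter 2, 31.4 and 47.1 CPM in litter 3, and 29.9 and 30.4 CPM in litter 4. The litter 3 values were both above the other 6, but they differed from each other, with the female far higher than the male. Ezh1 was higher in litter 3, at 0.51 ± 0.11 (SE; adjusted p = 0.00485), and without that female the difference was 0.20 (adjusted p = 0.212) and was no longer called. Without the male of litter 3 it was 0.81 (adjusted p = 2.21e-04).

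The ratio of Ezh1 to Ezh2, in CPM per kb, was 0.539 and 0.565 in litter 1, 0.666 and 0.668 in litter 2, 1.10 and 1.50 in litter 3, and 0.737 and 0.799 in litter 4. It was above 1 in both libraries of litter 3 and below 1 in the other 6, where it ran from 0.539 to 0.799. Its place above or below 1 depends on the annotated exon lengths, 7.44 kb for Ezh1 and 6.68 kb for Ezh2. The order of the libraries does not depend on them. The remaining subunits were steadier and were not called in the litter test. Suz12 had 73.3 and 63.1 CPM in litter 1, 64.9 and 69.3 CPM in litter 2, 72.8 and 70.3 CPM in litter 3, and 67.1 and 53.7 CPM in litter 4, with the lowest value in the female of litter 4. Jarid2, which guides the complex to its targets and is required for heart development, had 79.9 and 78.4 CPM in litter 1, 72.2 and 82.2 CPM in litter 2, 71.5 and 71.7 CPM in litter 3, and 70.1 and 80.1 CPM in litter 4. The values of Jarid2 in litter 3 lay within the range of litter 4 and below both of litter 1, with an adjusted p of 0.484 in the litter test. Eed ran from 22.0 to 25.7 CPM, with an adjusted p of 0.377.

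Of the 6 genes of Polycomb repressive complex 1, 3 were higher in litter 3 (against 13.6% of all genes) and none was called lower there (against 14.8%). Rnf2 (Ring1b), the main ubiquitin ligase of the complex, had 43.6 and 46.1 CPM in litter 1, 44.5 and 41.4 CPM in litter 2, 58.3 and 59.9 CPM in litter 3, and 49.4 and 41.4 CPM in litter 4. Rnf2 was highest in the male and female of litter 3, at 0.41 ± 0.07 (SE; adjusted p = 0.00187), which held in all 13 alternatives. Cbx7, a chromobox subunit that reads H3K27 methylation, had 4.18 and 4.73 CPM in litter 1, 5.70 and 3.96 CPM in litter 2, 7.72 and 7.02 CPM in litter 3, and 4.36 and 4.07 CPM in litter 4. It was low everywhere, with 78 to 178 counts in a library, and both libraries of litter 3 were again the highest, at 0.71 ± 0.16 (SE; adjusted p = 0.00599). That call was lost in 2 of 13 alternatives (adjusted p up to 0.0609), without the male and without the female of litter 3. Ring1, the paralog of Rnf2, had 20.7 and 21.6 CPM in litter 1, 20.5 and 25.1 CPM in litter 2, 27.5 and 27.1 CPM in litter 3, and 23.6 and 27.2 CPM in litter 4. Its litter 3 values overlapped the female of litter 4, and its difference in litter 3, 0.25 ± 0.08 (SE; adjusted p = 0.0369), lost the call in 7 of 13 alternatives (adjusted p up to 0.432) and was 0.14 without the male of litter 3. Bmi1 (73.6 to 84.9 CPM), Cbx2 (5.86 to 11.1 CPM) and Cbx8 (5.77 to 7.93 CPM) were not called in any litter.

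**Figure D4:**
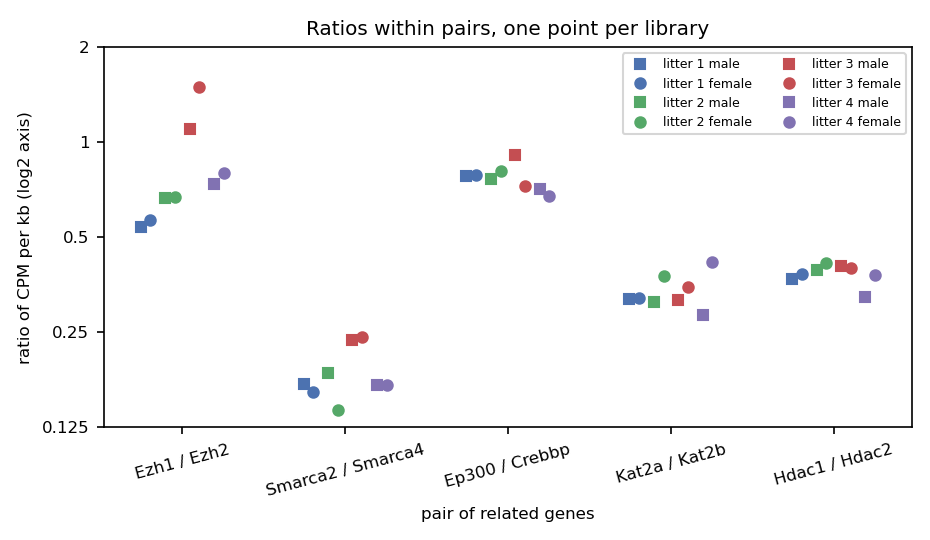
Ratio of CPM per kb within 5 pairs of related members (log2 axis), with 1 point per library, colour for the litter, squares for males and circles for females. In the first 2 pairs both points of litter 3 lie above all others (1.10 and 1.50 for Ezh1 over Ezh2, 0.236 and 0.241 for Smarca2 over Smarca4), and in the other 3 pairs litter 3 overlaps the remaining litters or is split.

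Of the 11 methyltransferases, 3 were lower in litter 3 (against 14.8% of all genes). In litter 4 there were 4 lower (against 5.8%) and 1 higher (against 4.71%). Smyd1 had 834 and 841 CPM in litter 1, 826 and 795 CPM in litter 2, 688 and 656 CPM in litter 3, and 895 and 958 CPM in litter 4. The lowest 2 of the 8 values were those of litter 3 and the highest 2 those of litter 4. Smyd1 was lower in litter 3, at -0.35 ± 0.06 (SE; adjusted p = 0.00108), which held in all 13 alternatives. It was higher in litter 4, at 0.27 ± 0.06 (SE; adjusted p = 0.0141), which was lost with library totals alone and without the female of litter 4, at 0.20 (adjusted p = 0.131). Kmt2d, one of the enzymes that put H3K4 monomethylation on enhancers, had 209.7 and 213 CPM in litter 1, 216 and 213 CPM in litter 2, 193 and 202 CPM in litter 3, and 122 and 166 CPM in litter 4. The litter 4 values were both below the other 6, the male far more than the female, and the difference was -0.54 ± 0.09 (SE; adjusted p = 0.00455). It was -0.33 (adjusted p = 0.0474) without that male, and the call was lost in 1 of 13 alternatives (adjusted p up to 0.0564), the correction for transcript length. Kmt2c, the paralog of Kmt2d, had 105 and 96.4 CPM in litter 1, 102 and 106 CPM in litter 2, 104 and 107 CPM in litter 3, and 78.8 and 80.1 CPM in litter 4. Its litter 4 libraries were close to each other and below the other 6, at -0.38 ± 0.06 (SE; adjusted p = 0.00551), lost in 2 of 13 alternatives (adjusted p up to 0.212), without the male of that litter and with the length correction.

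The other methyltransferases called in a litter were Kmt2a, Setd2, Dot1l, Suv39h2 and Ehmt2. Kmt2a (Mll1), which methylates lysine K4 of histone H3 at promoters, was lower in litter 4, at -0.39 ± 0.07 (SE; adjusted p = 0.00768), lost in the same 2 settings as Kmt2c (adjusted p up to 0.141). Setd2, which puts H3K36 trimethylation on transcribed genes, was lower there, at -0.26 ± 0.07 (SE; adjusted p = 0.0433), lost in 7 of 13 alternatives (adjusted p up to 0.413) and at -0.14 without the male and -0.39 without the female of litter 4. Dot1l was higher in litter 1, at 0.27 ± 0.08 (SE; adjusted p = 0.0482), lost in 8 of 13 alternatives (adjusted p up to 0.555) and at 0.15 without the male of litter 1. It was lower in litter 3, at -0.26 ± 0.08 (SE; adjusted p = 0.0376), lost in 5 of 13 alternatives (adjusted p up to 0.268). Suv39h2 was lower in litter 3, at -0.78 ± 0.26 (SE; adjusted p = 0.0439). For Suv39h2 that call was lost in 8 of 13 alternatives (adjusted p up to 0.259). Ehmt2 (G9a), which puts the repressive H3K9 dimethylation on silent genes, was lower in litter 1, at -0.23 ± 0.07 (SE; adjusted p = 0.0455). For Ehmt2 that call was lost in 9 of 13 alternatives (adjusted p up to 0.444). Its partner Ehmt1 (56.3 to 64.0 CPM), Setdb1 (42.4 to 47.4 CPM) and Setd1a (16.5 to 22.5 CPM) were not called in any litter.

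Of 7 demethylases, 3 were higher in litter 3 (against 13.6% of all genes). Kdm3a, which removes H3K9 methylation, had 63.6 and 61.6 CPM in litter 1, 65.2 and 57.3 CPM in litter 2, 73.5 and 78.7 CPM in litter 3, and 60.0 and 61.8 CPM in litter 4. The 2 highest values were those of litter 3, at 0.30 ± 0.07 (SE; adjusted p = 0.00664), and the call was lost without the female of litter 3, at 0.22 (adjusted p = 0.161). Kdm6b (Jmjd3), which removes the mark that Ezh2 puts on, had 115 and 115 CPM in litter 1, 127 and 143 CPM in litter 2, 144 and 147 CPM in litter 3, and 103 and 134 CPM in litter 4. Litter 3 was highest in both libraries, although the female of litter 2 came close, and the difference was 0.25 ± 0.07 (SE; adjusted p = 0.0255). For Kdm6b that call was lost in 3 of 13 alternatives (adjusted p up to 0.296). Kdm2b, a subunit of a variant of Polycomb repressive complex 1, was higher, at 0.29 ± 0.09 (SE; adjusted p = 0.0256). For Kdm2b that call was lost in 6 of 13 alternatives (adjusted p up to 0.166). Kdm4a, which acts on H3K9 and H3K36, had 56.2 and 57.0 CPM in litter 1, 62.8 and 69.9 CPM in litter 2, 71.5 and 70.4 CPM in litter 3, and 64.1 and 67.9 CPM in litter 4. Its lowest values were those of litter 1, at -0.26 ± 0.06 (SE; adjusted p = 0.0215), and that call was lost without the male of litter 1, at -0.28 (adjusted p = 0.181), and without the female, at -0.23 (adjusted p = 0.302). Kdm1a (76.6 to 87.9 CPM), Kdm4b (54.2 to 61.8 CPM) and Kdm4c (20.4 to 26.1 CPM) were not called in any litter.

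The deacetylases called in a litter, 4 in all, were the class IIa enzymes Hdac4, Hdac5, Hdac7 and Hdac9, which restrain cardiac growth genes through Mef2 factors. Hdac9 had 44.2 and 42.2 CPM in litter 1, 43.8 and 42.8 CPM in litter 2, 61.8 and 66.1 CPM in litter 3, and 52.3 and 46.0 CPM in litter 4. Hdac9 in litter 3 lay above all other 6 libraries, at 0.50 ± 0.07 (SE; adjusted p = 2.96e-04), and this call held in all 13 alternatives. Hdac9 was also lower in litter 1, at -0.25 ± 0.07 (SE; adjusted p = 0.0369). For Hdac9 that call was lost in 7 of 13 alternatives (adjusted p up to 0.332). Its difference in litter 2 was also -0.25 (SE 0.07; adjusted p = 0.0805). The mean that litter 1 or litter 2 is set against includes litter 3. Hdac5 had 124 and 122 CPM in litter 1, 121 and 161 CPM in litter 2, 162 and 186 CPM in litter 3, and 148 and 179 CPM in litter 4. The 3 lowest libraries were both of litter 1 and the male of litter 2, and litters 3 and 4 overlapped at the top. In litter 1 the difference of Hdac5 was -0.36 ± 0.08 (SE; adjusted p = 0.0101), and without the female of litter 1 it was -0.20 (adjusted p = 0.347). In litter 3 it was 0.30 ± 0.07 (SE; adjusted p = 0.0106), lost in 2 of 13 alternatives (adjusted p up to 0.0849).

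Hdac7 had another pattern, with 23.8 and 24.8 CPM in litter 1, 31.5 and 33.5 CPM in litter 2, 25.4 and 28.4 CPM in litter 3, and 22.6 and 25.4 CPM in litter 4. The litter 2 values were both above the other 6, at 0.38 ± 0.07 (SE; adjusted p = 0.00893), and the call was lost without the male, at 0.35 (adjusted p = 0.138), and without the female, at 0.40 (adjusted p = 0.111). Hdac7 is known from endothelial cells, and the summed level of 8 endothelial genes was 76.0 and 142 CPM in litter 2 against 15.3 to 59.6 CPM in the other 6 libraries. Its part in the difference was not tested. Hdac4 was higher in litter 3, at 0.27 ± 0.07 (SE; adjusted p = 0.0149). For Hdac4 that call was lost in 4 of 13 alternatives (adjusted p up to 0.121). The class I enzymes Hdac1, Hdac2 and Hdac3 had coefficients of variation of 2.41%, 8.10% and 5.82%, against 11.8% to 18.6% for the class IIa enzymes. Hdac1 had 40.1 and 41.1 CPM in litter 1, 38.3 and 39.1 CPM in litter 2, 39.2 and 38.8 CPM in litter 3, and 38.4 and 39.0 CPM in litter 4. Hdac2 had 141 and 139 CPM in litter 1, 126 and 122 CPM in litter 2, 126 and 126 CPM in litter 3, and 154 and 133 CPM in litter 4. Hdac1 differed little between any 2 libraries, and Hdac2 was highest in the male of litter 4. Hdac3, the catalytic subunit of the NCoR and SMRT corepressors, ran from 66.0 to 78.3 CPM, Hdac10 from 11.6 to 14.9 CPM and Hdac11 from 40.4 to 54.3 CPM, with no call in any litter.

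Among acetyltransferases, Ep300 (p300), a coactivator of Gata4 and Mef2 in the heart, had 75.7 and 78.2 CPM in litter 1, 78.0 and 87.9 CPM in litter 2, 95.6 and 87.7 CPM in litter 3, and 60.9 and 67.5 CPM in litter 4. Ep300 in litter 4 lay below all other 6 libraries, and the male of litter 3 was the highest. Ep300 was higher in litter 3, at 0.31 ± 0.07 (SE; adjusted p = 0.00643), lost without the male of litter 3 at 0.18 (adjusted p = 0.201). It was lower in litter 4, at -0.38 ± 0.07 (SE; adjusted p = 0.00888), lost in the same 2 settings as Kmt2c (adjusted p up to 0.125). Its paralog Crebbp (CBP) had 91.9 and 94.4 CPM in litter 1, 97.0 and 103 CPM in litter 2, 99.7 and 114 CPM in litter 3, and 81.3 and 94.8 CPM in litter 4. The litter 3 values of Crebbp overlapped those of litter 2, and the difference of Crebbp in litter 3, 0.19 ± 0.06 (SE; adjusted p = 0.0373), lost the call in 8 of 13 alternatives (adjusted p up to 0.332) and was 0.11 with the length correction. Kat2b had 140.3 and 139.9 CPM in litter 1, 139 and 120.2 CPM in litter 2, 146 and 131 CPM in litter 3, and 132 and 118 CPM in litter 4. Kat2a (Gcn5), the paralog of Kat2b, had 32.0 and 32.2 CPM in litter 1, 31.2 and 32.5 CPM in litter 2, 33.0 and 32.6 CPM in litter 3, and 26.8 and 35.2 CPM in litter 4. Neither Kat2a nor Kat2b was called in any litter.

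The remodelers included a pair of ATPases with opposite directions in litter 3. Smarca4, the ATPase of BAF complexes in the developing heart, had 117 and 123 CPM in litter 1, 113 and 143 CPM in litter 2, 101 and 99.4 CPM in litter 3, and 118 and 121 CPM in litter 4. The lowest values were those of litter 3, at -0.28 ± 0.07 (SE; adjusted p = 0.0143), and the call was lost without the female of litter 3, at -0.20 (adjusted p = 0.215). Smarca2, the alternative ATPase, had 44.5 and 44.1 CPM in litter 1, 46.4 and 44.8 CPM in litter 2, 52.6 and 52.7 CPM in litter 3, and 44.5 and 45.4 CPM in litter 4. The highest values were those of litter 3, at 0.23 ± 0.06 (SE; adjusted p = 0.0178). For Smarca2 that call was lost in 4 of 13 alternatives (adjusted p up to 0.151), with a difference of 0.15 after the length correction. The ratio of Smarca2 to Smarca4 in CPM per kb was 0.236 and 0.241 in litter 3 and 0.142 to 0.186 in the other 6 libraries. The ratio of Ep300 to Crebbp was lowest in both libraries of litter 4, at 0.711 and 0.675, and ran up to 0.909 elsewhere. That of Kat2a to Kat2b ran from 0.283 to 0.418 and that of Hdac1 to Hdac2 from 0.323 to 0.415, with the male of litter 4 lowest in both.

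Smarcd3 had 101 and 103 CPM in litter 1, 99.1 and 102 CPM in litter 2, 85.8 and 83.3 CPM in litter 3, and 108 and 114 CPM in litter 4. Like Smyd1, it was lowest in both libraries of litter 3 and highest in both of litter 4. In litter 3 the difference of Smarcd3 was -0.30 ± 0.06 (SE; adjusted p = 0.00320), lost without the female of litter 3 at -0.26 (adjusted p = 0.0713). In litter 4 it was 0.22 ± 0.06 (SE; adjusted p = 0.0353), lost in 10 of 13 alternatives (adjusted p up to 0.232) and at 0.14 with library totals alone. Arid1a (Baf250a), the subunit that defines one form of the BAF complex, had 167 and 157 CPM in litter 1, 146 and 173 CPM in litter 2, 165 and 157 CPM in litter 3, and 116 and 133 CPM in litter 4. Both libraries of litter 4 were below the other 6, at -0.37 ± 0.08 (SE; adjusted p = 0.0137), lost in the same 2 settings as Kmt2c (adjusted p up to 0.144). Chd4 (351 to 440.1 CPM) and Chd7 (36.4 to 57.5 CPM), the gene mutated in CHARGE syndrome, were not called in any litter.

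The members that were lower in litter 4 have long transcripts. They were Kmt2a, Kmt2c, Kmt2d, Setd2, Ep300 and Arid1a, and all 6 have over 10 kb of summed exon. Of the 48 members, 12 (25.0%) are that long, against 9.60% of all genes, and the median exon length was 6.58 kb for members and 4.32 kb for all genes. The difference of litter 4 was below 0 for 12 of 12 long members, with a median of -0.28, against a median of 0.03 for the 22 members of 3 to 6 kb. Over all genes the median difference of litter 4 was 0.12 under 3 kb, 0.03 at 3 to 6 kb, -0.07 at 6 to 10 kb and -0.16 over 10 kb, so that long genes as a class were lower there. In litter 3 the same medians were -0.02, -0.01, 0.01 and 0.07.

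For each gene, a library's deviation from the mean of the other libraries of its sex was set against exon length. Spearman's rho was -0.36 over 13596 genes and -0.62 over the 48 members in the male of litter 4. It was -0.27 and -0.44 in the female of litter 4, and in the other 6 libraries it ran from 0.02 to 0.17 over all genes and from -0.02 to 0.34 over the members. For the litter 3 difference it was 0.05 over all genes and 0.31 over the members. The genes share each library's depth and scaling, and no test was made. After a correction for length, an alternative chosen after the data had been seen, litter 4 had 0 members lower and 1 higher, Smyd1, with 12 members and 2921 of all genes at an unadjusted p under 0.05 in edgeR. Kmt2d then stood at -0.30 (adjusted p = 0.0564), Kmt2c at -0.14 (adjusted p = 0.212), and Kmt2a at -0.19 (adjusted p = 0.141). Ep300 stood at -0.20 (adjusted p = 0.125), Arid1a at -0.22 (adjusted p = 0.114) and Setd2 at -0.12 (adjusted p = 0.340). Without the male of litter 4, the library with the highest mitochondrial share, 2 members were called in litter 4, Smyd1 and Kmt2d. Kmt2d then stood at -0.33 (adjusted p = 0.0474), while Kmt2c stood at -0.36 (adjusted p = 0.0544) and Kmt2a at -0.27 (adjusted p = 0.108). Without that library Ep300 stood at -0.33 (adjusted p = 0.0960), Arid1a at -0.29 (adjusted p = 0.144) and Setd2 at -0.14 (adjusted p = 0.413). In litter 4, 6 of 8 fibroblast genes were also called higher, with a summed level of 227 and 108 CPM against 32.4 to 243 CPM elsewhere. Litter 2 stood higher, at 243 and 153 CPM. Litter 3, part of the mean that litter 4 is set against, was lowest, at 51.8 and 32.4 CPM. Of 10 cardiomyocyte genes 4 were called higher and 2 lower in litter 4, and of 8 mural genes 3 higher and 1 lower. Of 3 tested macrophage genes and of 2 tested Schwann and neural genes, 1 each was called lower, and none of the endothelial, epicardial, erythroid, atrial, S phase and G2/M lists was called. The part of these in the members' differences was not tested. In litter 3, 15 members were called after the length correction, 9 higher and 6 lower, against 1773 higher and 2085 lower of 13771 genes.

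**Figure D5:**
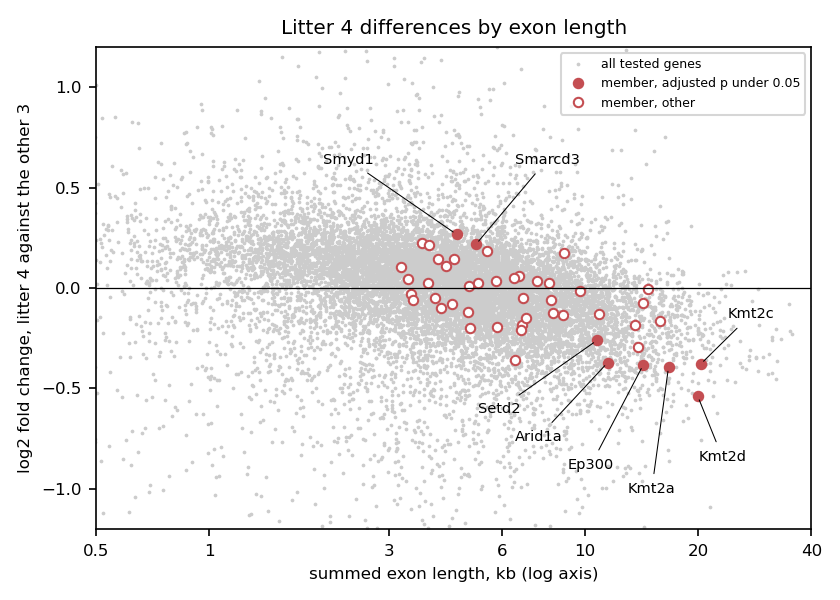
Log2 difference of each gene between litter 4 and the mean of the other 3 litters against summed exon length (log axis), for all tested genes (grey; genes beyond the axis limits are not drawn) and the 48 members (red, filled where the adjusted p is under 0.05). The 6 members called lower all lie to the right of 10 kb, and the cloud of all genes slopes downward.

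Of 157 other chromatin genes listed by family, 155 were tested, and 56 (36.1%) were called in the litter test, close to the 32.1% of all genes. In litter 3, 33 of the 155 were higher (21.3%) and 13 lower (8.39%), where 13.6% of all genes were higher and 14.8% lower. In litter 4, 5 were higher (3.23%) and 28 lower (18.1%), where 4.71% of all genes were higher and 5.8% lower. These counts are without the correction for length, and the part of exon length in them was not tested. Their median difference was 0.06 in litter 3 and -0.05 in litter 4, beside 0.00 and 0.01 for all genes. By family, the litter test called 6 of 25 other Polycomb subunits, 11 of 29 other methyltransferases and cofactors, 5 of 15 other demethylases, 8 of 23 other deacetylases and corepressors, 9 of 18 other acetyltransferases and bromodomain readers, 14 of 36 other remodelers and 3 of 9 heterochromatin proteins.

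Several other demethylases and remodelers differed in litter 3. Kdm7a, which acts on H3K9 and H3K27, had 56.2 and 56.1 CPM in litter 1, 57.8 and 56.3 CPM in litter 2, 87.0 and 83.8 CPM in litter 3, and 56.7 and 47.3 CPM in litter 4. Both libraries of litter 3 were above the other 6, at 0.63 ± 0.07 (SE; adjusted p = 4.46e-05). The H3K4 demethylases Kdm5a and Kdm5b were also higher in litter 3, at 0.44 ± 0.06 (SE; adjusted p = 2.92e-04) and 0.43 ± 0.06 (SE; adjusted p = 4.19e-04). Smarca1 (Snf2l), an ATPase of the ISWI family, had 19.6 and 21.8 CPM in litter 1, 23.0 and 16.9 CPM in litter 2, 38.0 and 35.4 CPM in litter 3, and 19.5 and 15.8 CPM in litter 4. It was likewise highest in both libraries of litter 3, at 0.92 ± 0.10 (SE; adjusted p = 5.56e-05). Hells (Lsh), a remodeler of dividing cells, had 20.0 and 17.5 CPM in litter 1, 13.6 and 13.7 CPM in litter 2, 8.59 and 7.29 CPM in litter 3, and 14.8 and 8.52 CPM in litter 4. It was low in litter 3 and in the female of litter 4 and high in litter 1, with a difference of -0.85 ± 0.15 (SE; adjusted p = 0.00156) in litter 3. Hat1, which acetylates newly made histone H4, was lower in litter 3, at -0.48 ± 0.07 (SE; adjusted p = 6.17e-04). The deacetylase Sirt1 was higher, at 0.43 ± 0.07 (SE; adjusted p = 0.00115).

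Some of the other chromatin genes were lower in litter 4, in values that are not corrected for length. Srcap, the ATPase that places the histone variant H2A.Z, stood at -0.72 ± 0.13 (SE; adjusted p = 0.00759). The methyltransferases Setd7 and Setd1b stood at -0.48 ± 0.06 (SE; adjusted p = 0.00211) and -0.42 ± 0.07 (SE; adjusted p = 0.00590). These 3 genes were also called higher in litter 3, which is part of the mean that litter 4 is set against, at 0.40 for Srcap, 0.35 for Setd7 and 0.35 for Setd1b. Kdm7a, Kdm5a and Smarca1, higher in litter 3, were in turn called lower in litter 4, at -0.33, -0.33 and -0.49, and Hat1 was called higher there, at 0.31. In litter 1, Hells, Scml2 and Hat1 were called higher, at 0.80, 0.68 and 0.22, and Kdm5b and Mta1 lower, at -0.31 and -0.32. In litter 4 the corepressor Rcor1 stood at -0.41 ± 0.09 (SE; adjusted p = 0.0150) and the acetyltransferase Kat6a at -0.37 ± 0.08 (SE; adjusted p = 0.0180). Scml2, a Polycomb gene on the X, was lower in litter 3, at -0.73 ± 0.20 (SE; adjusted p = 0.0185). The heterochromatin protein Cbx1 was lower there, at -0.24 ± 0.07 (SE; adjusted p = 0.0191), and the NuRD subunit Mta1 was higher there, at 0.27 ± 0.07 (SE; adjusted p = 0.0101). In litter 1 the Polycomb-associated gene Asxl3, at only 0.765 to 2.22 CPM, was higher, at 0.98 ± 0.24 (SE; adjusted p = 0.0207), and the chromobox gene Cbx6 was lower, at -0.40 ± 0.08 (SE; adjusted p = 0.00475). The heterochromatin gene Cbx5 (HP1 alpha) was higher in litter 1, at 0.25 ± 0.06 (SE; adjusted p = 0.0141), and lower in litter 4, at -0.24 ± 0.06 (SE; adjusted p = 0.0268), and Hmgb2 was higher in litter 1, at 0.41 ± 0.09 (SE; adjusted p = 0.0138). Smyd3 (5.75 to 8.72 CPM) and Kat8 (17.7 to 25.1 CPM) were called in the litter test but not in any single litter. Among the Mef2 factors that class IIa deacetylases bind, the adjusted p in the litter test was 0.209 for Mef2a, 0.0707 for Mef2c and 0.0951 for Mef2d.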

How the data were processed

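RNA was measured by sequencing in 8 libraries of purified cardiomyocytes. Column-purified RNA, 1 µg of total RNA per library, entered a stranded total RNA kit per the labels, while the molecule is labelled as polyA RNA. The authors deposited 1 table of raw counts per gene symbol; STAR 2.7.3a and mm10 are named in the submitters' processing notes, and the counting program, its strand setting and the annotation are not given in the sources used here. From the deposited counts, edgeR 4.0.16 in R 4.3.3 (with limma 3.58.1) kept 13771 genes with filterByExpr on sex, scaled with TMM and ran quasi-likelihood F tests on all of them with Benjamini-Hochberg adjustment and a threshold of 0.05. Sex (male minus female) was fitted without a litter term, with 6 residual degrees of freedom, and litter in a model with sex, with 3. Replicates are separate hearts, per the series' design text.

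The members and gene lists were chosen with earlier results of these data known. In every role the 3 members with the smallest litter p, the members of 5 pairs of related genes, Smyd1 and Jarid2 are given in every library; other chromatin genes were named by litter range among those called, up to 3 per list, and the sex-linked demethylases and Mef2 factors were named beside them. A fixed list of Ezh2 targets and 1 marker gene are not reported here. Exon lengths and gene overlaps came from GENCODE M21 on GRCm38, promoters from RefSeq on GRCm38.p6. The labels give the litter, so litter pairs a male with a female: across genes, after removal of the sex means, the pairs correlated at 0.506, 0.503, 0.696 and 0.367 in litters 1 to 4, against -0.482 to 0.270 for pairs from different litters. Alternatives were DESeq2 1.42.0, other scalings, no filter, litter as a block, each library and each litter left out, and a correction for exon length that was chosen after seeing the data. Scripts were tested on simulated data.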

Additional observations from a re-analysis of the deposited data

Results flagged for a closer look

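In each member the highest and the lowest library of either sex was set against the other 3 of that sex, by the share of the whole range that the gap takes (Dixon's criterion for 4 samples). Of 96 groups checked, 6 held a library far from the others, where chance gives about 1 in 20, or 4.8.

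Kmt2c had 78.8 CPM in the male of litter 4 against 102 to 105 CPM in the other males. Hdac9 had 66.1 CPM in the female of litter 3 against 42.2 to 46.0 CPM in the other females, and Smarca2 had 52.7 CPM there against 44.1 to 45.4 CPM. Ehmt1 had 59.7 CPM in the female of litter 1 against 63.3 to 64.0 CPM, and Hdac1 had 41.1 CPM there against 38.8 to 39.1 CPM. Kat2a had 35.2 CPM in the female of litter 4 against 32.2 to 32.6 CPM. For Kmt2c, Hdac9, Smarca2 and Hdac1 the other library of the same litter lay in the same direction, as given above by litter. With 1 library per sex and litter, a difference of the sex effect between litters was not tested.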

How the results depend on the processing

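In the 13 alternatives run for each, none of the 34 called litter differences of single members reversed. Together with the 22 members of the litter test, which had 17 alternatives each, 619 values kept their side of the threshold and 197 did not. With litter as a replicate block, 29 genes differed by sex instead of 6, and no member call changed. Without a filter, litter 2 had 1249 genes instead of 575 and 6 members instead of 1. The length correction gave litter 4 564 genes instead of 1447 and 1 member instead of 8, and litter 2 had 2 members. Leaving out 1 library or 1 litter gave 5 to 8 genes by sex with 0 members, 1898 to 4586 genes (main 4427) and 8 to 26 members (main 22) in the litter test, 359 to 1869 genes (1827) and 1 to 7 members (6) in litter 1, 153 to 752 genes (575) and 0 to 4 members (1) in litter 2, 1704 to 3791 genes (3903) and 5 to 19 members (19) in litter 3, and 322 to 1302 genes (1447) and 2 to 7 members (8) in litter 4. The lowest litter test values, 1898 genes and 8 members, came without litter 3; those of litter 3, 1704 genes and 5 members, without its female (2234 and 8 without its male); those of litter 4, 322 genes and 2 members, without its male. A litter left with 1 library was assumed to vary like the others. Depth limits Suv39h2 most, at 18 to 97 counts.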
